A study of Mus musculus with 3 samples.

Results

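Peaks of Isl1 occupancy assigned to genes of the translation machinery were examined in cardiac progenitor cells (CPCs). Of the 14082 distinct peaks in the list, 64 carried the symbol of a cytosolic ribosomal protein gene (Rpl or Rps), a mitochondrial ribosomal protein gene (Mrpl or Mrps) or a translation initiation or elongation factor gene (Eif or Eef). A gene symbol belonged when one of these prefixes was followed by a digit, and the S6 kinases (Rps6k) were left out. The 64 peaks named 54 genes out of 9313 gene names in the list. They comprised 26 peaks at 19 cytosolic ribosomal protein genes, 11 peaks at 10 mitochondrial ribosomal protein genes and 27 peaks at 25 translation factor genes.

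The cells were derived from 1 mouse embryonic stem cell (ESC) line, E14 Tg(Nkx2-5-EmGFP), which carries a fluorescent reporter for the early cardiac gene Nkx2-5, and they were harvested at day 5 of a directed cardiac differentiation. Chromatin immunoprecipitation followed by sequencing (ChIP-Seq) gave 2 replicates pulled down with an anti-Isl1 antibody and 1 input, which is precleared chromatin that saw no antibody. The deposited list is a single set of positions, each assigned to its closest transcription start site (TSS), with no height, read number or column for a replicate. Peaks were therefore counted as present or absent, spread between replicates could not be measured, and the depth of the libraries is unknown. The labelled cell type could not be checked, since an occupancy list holds no marker expression, and the cells collected at day 5 were not described in the labels as sorted.

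Ribosomes of the cytosol are built from a small subunit, with Rps proteins, and a large subunit, with Rpl proteins, whereas the ribosomes of mitochondria carry their own Mrps and Mrpl proteins and make components of the respiratory chain. Initiation factors bring the cap of the mRNA, the initiator tRNA and the small subunit together, and elongation factors deliver aminoacyl-tRNAs and move the ribosome along. These genes are used by every growing cell and mostly have CpG-rich promoters. Isl1 belongs to the LIM-homeodomain transcription factors, marks progenitors of the second heart field and recognises DNA with a TAAT core.

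To show what lay under these peaks, sequence was read from the mm9 assembly just upstream of the outermost annotated start, inside the peak and outside any annotated exon, for 2 peaks of each class close to their TSS. These were the 2 closest ones, except that Rps3a1 took the place of Rps19, of whose upstream window too little lay inside the peak. For Mrpl48 the start used is that of a transcript not annotated as coding, and the stretch lies inside Rab6, which runs on the other strand. Capitals mark GGGCGG, the string bound by Sp1-type factors, or its reverse complement. The 5′ to 3′ sequences follow the strand of the gene. They span chr17:27772222-27772287 (minus strand) for Rps10, chr3:85946625-85946744 (minus) for Rps3a1, chr16:92058395-92058514 (plus) for Mrps6, chr7:107756812-107756931 (minus) for Mrpl48, chr9:120401604-120401723 (plus) for Eif1b and chr11:69734889-69735008 (minus) for Eif5a.
Rps10: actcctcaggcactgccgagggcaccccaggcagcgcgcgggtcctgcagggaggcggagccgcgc
Rps3a1: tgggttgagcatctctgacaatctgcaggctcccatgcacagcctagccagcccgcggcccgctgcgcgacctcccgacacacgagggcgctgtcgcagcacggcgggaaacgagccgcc
Mrps6: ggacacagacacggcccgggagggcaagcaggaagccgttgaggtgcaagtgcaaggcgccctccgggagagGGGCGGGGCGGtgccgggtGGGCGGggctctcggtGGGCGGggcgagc
Mrpl48: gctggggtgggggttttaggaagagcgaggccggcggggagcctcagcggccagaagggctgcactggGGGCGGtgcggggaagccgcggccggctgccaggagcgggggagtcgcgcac
Eif1b: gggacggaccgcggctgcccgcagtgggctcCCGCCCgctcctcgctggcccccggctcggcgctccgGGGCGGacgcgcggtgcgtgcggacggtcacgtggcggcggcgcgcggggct
Eif5a: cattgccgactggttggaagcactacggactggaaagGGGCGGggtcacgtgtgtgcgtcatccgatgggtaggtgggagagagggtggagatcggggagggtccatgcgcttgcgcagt
The GC content of these stretches was 77.3% for Rps10, 69.2% for Rps3a1, 75.8% for both Mrps6 and Mrpl48, 84.2% for Eif1b and 62.5% for Eif5a. The stretches of Rps10 and Rps3a1 held none of the strings searched, and none of the 6 stretches held TAAT.

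The question addressed first was how many genes of each class carried a peak. Among translation factor genes, 25 of 71 (35.2%, 95% Wilson interval 25.1% to 46.8%) had at least 1 assigned peak, against 19 of 87 cytosolic ribosomal protein genes (21.8%, 14.5% to 31.6%) and 10 of 78 mitochondrial ribosomal protein genes (12.8%, 7.12% to 22%). Over all 21031 protein-coding genes the share was 39.1%. The interval of the translation factors thus included the value of all genes, while the intervals of both ribosomal classes lay below it. These intervals cover counting error over genes only, and the differences between classes were not tested, since the classes were chosen with results of this list known.

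With the peak required within 1 kb of the TSS, 36 of the 236 genes (15.3%) remained, beside 24.2% of all protein-coding genes. By class these were 19 of 71 translation factor genes (26.8%, 17.9% to 38.1%), 12 of 87 cytosolic genes (13.8%, 8.07% to 22.6%) and 5 of 78 mitochondrial genes (6.41%, 2.77% to 14.1%). The order of the classes was the same as for any peak, and the intervals of the translation factors and the mitochondrial class did not overlap. That of the cytosolic class overlapped with both.

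**Figure D1:**
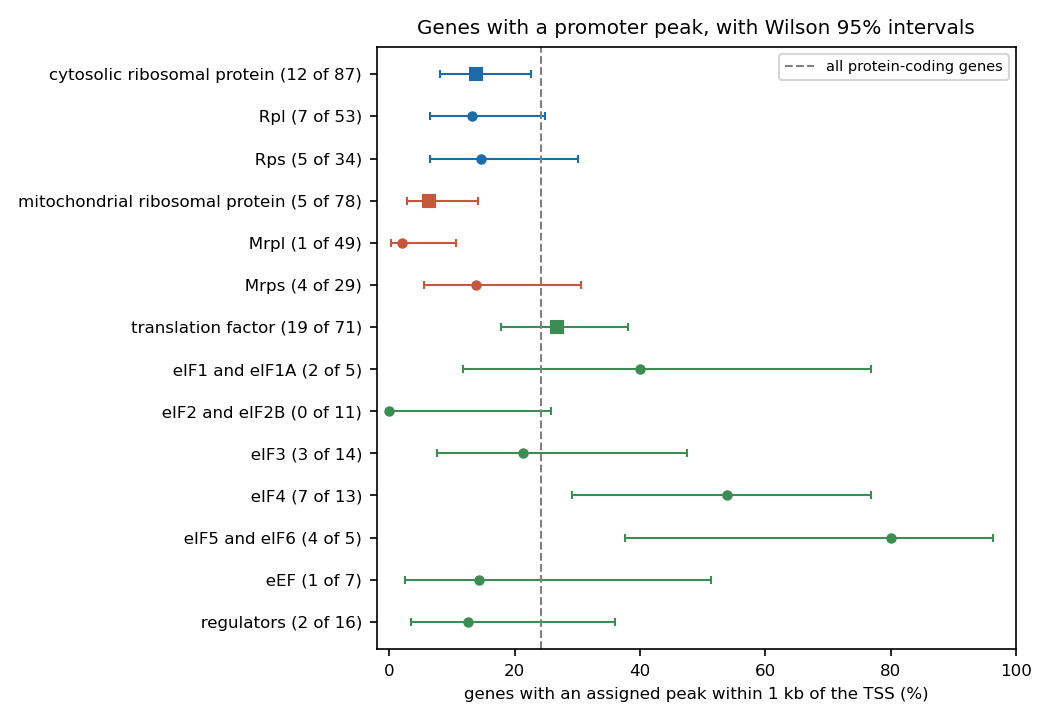
Share of genes with an assigned peak within 1 kb of the TSS, in percent, for the 3 classes (squares) and their subgroups (circles), with Wilson 95% intervals; the dashed line is the 24.2% of all protein-coding genes. The translation factor class sits to the right of the line, as do the eIF1 and eIF1A, the eIF4 and the eIF5 and eIF6 subgroups. Both ribosomal classes sit to its left.

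Among the cytosolic ribosomal proteins, 7 of 53 Rpl genes and 5 of 34 Rps genes had a promoter peak, so the large and the small subunit gave similar shares of 13.2% and 14.7%. The peaks of the large subunit lay at Rpl5, Rpl14, Rpl19, Rpl22, Rpl31, Rpl32 and Rpl36, and those of the small subunit at Rps3a1, Rps7, Rps10, Rps14 and Rps19. Rps19, Rps10, Rps7 and Rpl5 are known as genes mutated in Diamond-Blackfan anaemia, and Rps14 as the gene lost in the 5q- syndrome. The 68 cytosolic genes with no assigned peak at all included classical ones such as Rpl3, Rpl4, Rpl8, Rpl11, Rps2, Rps3, Rps6 and Rps18. The symbol rule also took in names that are not core subunits, such as Rps19bp1 and Rps23rg1, and the copies Rpl3l, Rpl22l1, Rpl39l and Rps27l, none of which had a peak. The pseudogene names Rpl31-ps12 and Rpl34-ps1 were counted among the 87 as well, also without a peak.

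The peak of Rps10 lay closest to its TSS, with its midpoint at 28 bp, where positive distances are downstream in the direction of transcription. It spanned chr17:27771786-27772533, a width of 747 bp. Rps19 followed at 87 bp (chr7:25669515-25670126, 611 bp wide), Rps3a1 at 121 bp (chr3:85946020-85946919, 899 bp), Rpl14 at 149 bp (chr9:120480469-120481098, 629 bp) and Rpl31 at 163 bp (chr1:39424469-39425249, 780 bp). The midpoints of Rps10 and Rps19 fell in an untranslated exon part, that of Rps3a1 in a coding exon and those of Rpl14 and Rpl31 in an intron of the same gene. The other 7 lay between 177 bp, for Rpl5 and Rpl19, and 366 bp, for Rps7.

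The mitochondrial class was split by subunit, with 1 of 49 Mrpl genes (2.04%, 0.361% to 10.7%) and 4 of 29 Mrps genes (13.8%, 5.50% to 30.6%) carrying a promoter peak. Those intervals overlapped. Mrps6, a protein of the small subunit, had its midpoint at 29 bp (chr16:92058003-92059218, 1215 bp wide). Slc5a3, the myo-inositol transporter gene, has a start within 1 kb of the same peak. The list named Mrpl48 as the gene of the large subunit, at 38 bp in a peak of 1635 bp (chr7:107755655-107757290). By the mm9 annotation, the closest start of a coding Mrpl48 transcript was 24828 bp away, and a start of an Mrpl48 transcript not annotated as coding was 36 bp away. The midpoint lay in an untranslated exon part of Rab6, a Golgi GTPase, 268 bp from a coding start of that gene. Without this peak, no Mrpl gene had a promoter peak by symbol. The remaining small-subunit genes were Mrps16 at 60 bp (chr14:21212354-21213081, 727 bp), Mrps24 at 215 bp (chr11:5607014-5607961, 947 bp) and Mrps26 at 221 bp (chr2:130389106-130390322, 1216 bp).

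Among translation factors, the observed shares with a promoter peak differed between the initiation steps, in small subgroups whose differences were not tested. Of the 13 eIF4 genes, which act at the mRNA cap, 7 had a promoter peak (53.8%, 29.1% to 76.8%). These were Eif4e, which binds the cap, its paralog Eif4e3, the scaffolds Eif4g1 and Eif4g3, the related Eif4g2, and Eif4b and Eif4h, both cofactors of the helicase eIF4A. The genes of the helicase itself, Eif4a1 and Eif4a2, had no assigned peak, and the same held for Eif4a3, Eif4a3l1, Eif4e1b and Eif4e2. Among the regulators, 2 of 16 genes had a promoter peak (12.5%, 3.50% to 36.0%), beside 24.2% of all protein-coding genes. These were Eif4ebp1 and Eif4ebp2, encoding inhibitors that sequester eIF4E, while Eif4ebp3 and Eif4enif1 had no assigned peak.

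Of the 5 eIF5 and eIF6 genes, 4 had a promoter peak (80%, 37.6% to 96.4%). Eif5 encodes the GTPase-activating protein of eIF2, Eif5b the factor of subunit joining, and Eif5a and Eif5a2 the hypusinated factors that help the ribosome elongate. Eif6, which keeps the subunits apart, had none. In contrast, none of the 11 eIF2 and eIF2B genes, which carry the initiator tRNA or recycle its carrier, had a peak within 1 kb, and a count of 0 of 11 allows a share of up to 27.3%, taken as 3 counts of the total (the upper Wilson limit was 25.9%). Eif2s1, Eif2s2, Eif2s3x and the eIF2B genes Eif2b1, Eif2b3, Eif2b4 and Eif2b5 had no assigned peak, while Eif2b2 had a peak at -2622 bp (chr12:86557513-86558106, intergenic). With 5 to 16 genes a subgroup, the intervals were wide. For peaks assigned by symbol, only those of the eIF4 genes and the eIF5 and eIF6 genes lay above the 24.2% of all genes. By peaks of any symbol near mm9 starts, described below, the eIF4 count was 6 of 13 (46.2%), against 27.6% of all genes. No interval was computed for that count.

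In the remaining subgroups, 3 of the 14 eIF3 genes had a promoter peak, namely the core subunits Eif3a and Eif3b and the copy Eif3j2. The peak named Eif3j2 in the list lies on chromosome 2 at the gene called Eif3j in the mm9 annotation and Eif3j1 in RefSeq, 134 bp from its start, and its centre is single-copy. RefSeq places Eif3j2 on chromosome 18, so this peak belongs by position to Eif3j1. Of 5 eIF1 and eIF1A genes, Eif1 and Eif1b, which guard start codon choice, had one. Among the 7 eEF genes it was found at Eef1a1, which delivers aminoacyl-tRNAs, and no peak was assigned to Eef2, the translocation factor, or to Eef1a2, the form of adult muscle and neurons.

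Closest to the TSS among the translation factors was Eif1b at -30 bp (chr9:120401228-120402160, 932 bp wide). It was followed by Eif5a at 43 bp (chr11:69733886-69735202, 1316 bp), Eif4e3 at 87 bp (chr6:99616321-99617035, 714 bp), Eif3j2 at 97 bp (chr2:121853824-121855008, 1184 bp) and Eif4ebp1 at 119 bp (chr8:28370574-28371262, 688 bp). The farthest midpoint of the class within 1 kb belonged to Eif4g1 at 437 bp, in an intron. Apart from Eif1b, whose midpoint was intergenic, every promoter peak of the class had its midpoint inside the transcribed region.

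All 36 promoter peaks shared a narrow placement. Each covered its TSS, compared with 93.9% of all 5416 peaks within 1 kb, and no midpoint lay farther than 437 bp, although the next closest peak of the classes was 2622 bp away. In 35 of 36 (97.2%, 85.8% to 99.5%) the midpoint was downstream of the TSS, against 80.9% of all peaks within 1 kb. The median midpoint was 184.5 bp for the 36 and 152 bp for all, and by class it was 177 bp for the cytosolic, 60 bp for the mitochondrial and 198 bp for the translation factor genes. By the annotation, 18 of the midpoints were in introns, 10 in coding exons, 6 in untranslated exon parts, 1 in a noncoding exon and 1 was intergenic. A midpoint just downstream of the assigned TSS was thus the common feature, as it also was for most of all peaks within 1 kb. By the closest coding start of the mm9 annotation, whichever gene it belonged to, 35 of the 36 lay within 1 kb. The exception was Eif4e, at 1347 bp.

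**Figure D2:**
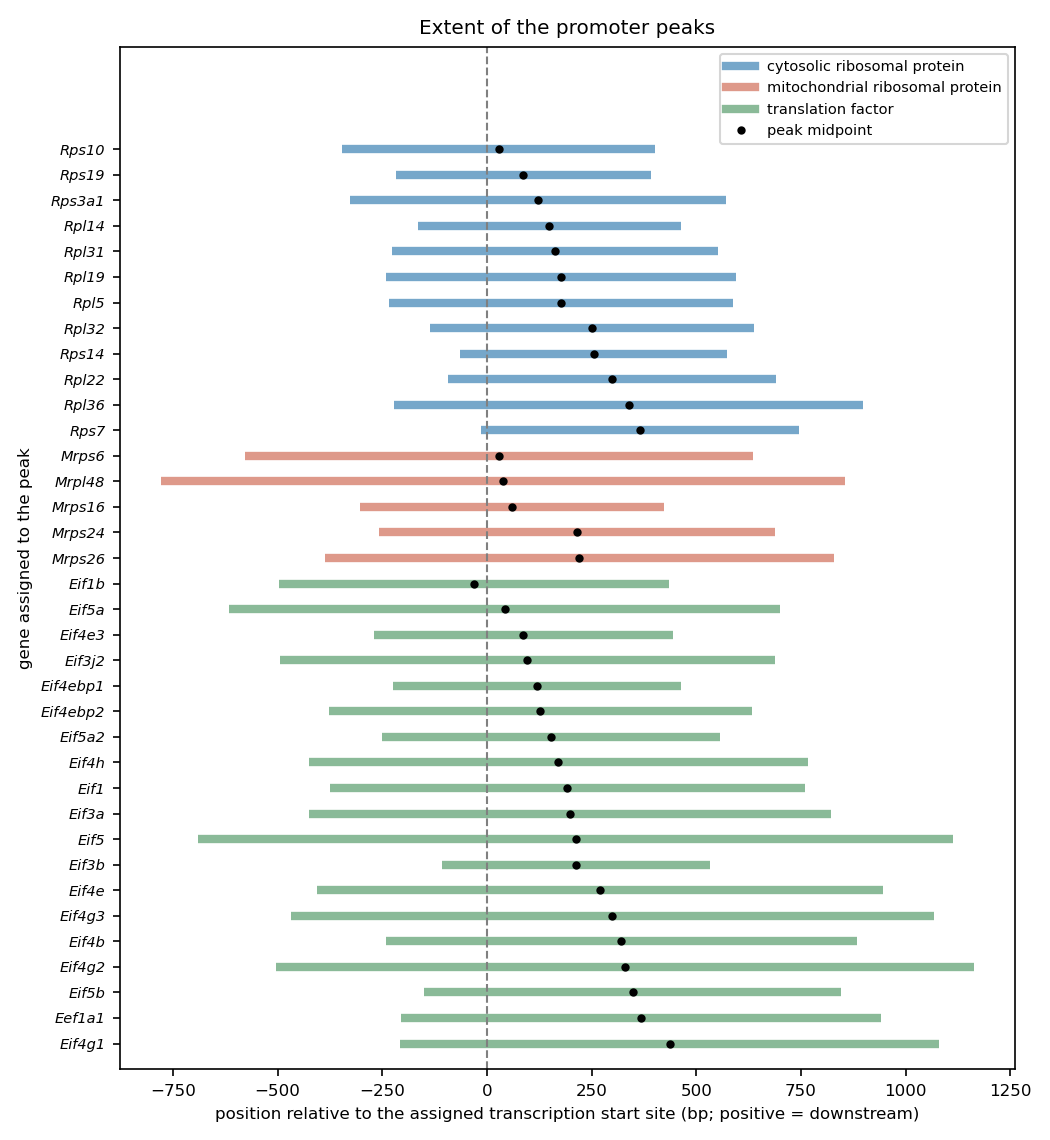
Extent of the 36 promoter peaks (bars, start to end) and their midpoints (black points) relative to the assigned TSS (dashed line), in bp with positive values downstream, coloured by class. Every bar crosses the TSS, and every midpoint but that of Eif1b, at -30 bp, lies to the right of it.

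The promoter peaks of the cytosolic genes were the narrowest at the median. The median width of promoter peaks was 776.5 bp for the cytosolic genes, 1215 bp for the mitochondrial and 1146 bp for the translation factor genes, against 1050 bp for all peaks within 1 kb. Among cytosolic promoter peaks the widths ran from 611 bp, at Rps19, to 1120 bp, at Rpl36. Of the translation factors, Eif5 had the widest peak (1803 bp, chr12:112775623-112777426) and Eif4g2 the next (1668 bp, chr7:118225380-118227048). The interquartile ranges, 719.5 to 827 bp for the cytosolic and 964 to 1302.5 bp for the translation factor genes, did not overlap. Width is the only measure of extent in the list, and how it relates to the strength of occupancy cannot be read from it.

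The centres of the promoter peaks were GC-rich. Over the central 200 bp the median GC content was 73.8% (range 60.5% to 85%), which was close to the 74% of all peaks within 1 kb. The lowest values belonged to Rpl36 (60.5%) and Eef1a1 (62.5%) and the highest to Eif4e (85%) and Eif4g3 (84%). By class the medians were 72.5% for the cytosolic, 74.5% for the mitochondrial and 74% for the translation factor genes. Windows 2 kb to either side had medians of 43% and 44.5%, lower than the centre of each promoter peak. The observed to expected ratio of CpG, a measure of CpG islands, had a median of 0.969, against 0.930 for all.

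Short strings known from ubiquitous promoters were searched in these centres on both strands. GGGCGG was found in 22 of the 36 centres (61.1%, 44.9% to 75.2%) and in 65.7% of all peaks within 1 kb. ATGGCG, a YY1-type string that can also arise around a start codon, was in 10 of 36 (27.8%, 15.8% to 44.0%), against 14.8% of all. The 10 genes were Rps3a1, Rps7, Rps10, Rpl31, Eif3j2, Eif4e3, Eif4g2, Eif4h, Eif4ebp1 and Eif4ebp2. None was mitochondrial, but that class had only 5 promoter peaks (upper limit 43.4%). Over the central 400 bp, ATGGCG was in 2 of those 5, in 41.7% of the 36 and in 25.9% of all. CCGGAAG, an Ets-type string, was in the centres of Rps10, Mrps16 and Eif5a2 (8.33%, against 5.28% of all). The 9-letter strings TCTCGCGAG and GCGCATGCG, the latter of the Nrf1 type, were in none of the 36 centres, and in 0.222% and 0.480% of all.

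TAAT was found in 1 of the 36 centres (2.78%, 0.492% to 14.2%), that of Rpl5, against 5.87% of all peaks within 1 kb. Over the central 400 bp the order turned, with 6 of 36 (16.7%) against 13.0% of all. In the windows 2 kb to either side it was in 69.4% around the 36 peaks and in 66.5% around all peaks within 1 kb, so the string was rarer in the GC-rich centres than in their surroundings in both sets. The longer LIM-homeodomain type strings, CTAATTG or CTAATGG, both of which contain TAAT, were found in the centres of 2 of the 64 peaks, at Rpl5 and in a distal peak assigned to Rps24. They occurred in 0.369% of all peaks within 1 kb and in 0.417% of all beyond 10 kb. Both matches are shown with 30 bases to either side, on the plus strand, with the string in capitals. The match at chr5:108329779-108329845 lies within Rpl5 in an intron, and the match at chr14:25598737-25598803 is intergenic.
Rpl5: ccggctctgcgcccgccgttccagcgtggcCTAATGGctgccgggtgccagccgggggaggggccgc
Rps24: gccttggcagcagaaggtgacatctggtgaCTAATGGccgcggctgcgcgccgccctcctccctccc
In both, CTAATGG stood in a GC-rich surrounding, with a GC content of 79.1% over the stretch of Rpl5 and 68.7% over that of Rps24. These matches are descriptions of letters and do not show a bound site.

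Assignment to the closest TSS can hide a gene with a shared promoter. When peaks of any symbol within 1 kb of a coding start in the mm9 annotation were counted, 16 of 82 cytosolic genes (19.5%), 8 of 78 mitochondrial genes (10.3%) and 20 of 69 translation factor genes (29%) had one, against 27.6% of all protein-coding genes. The order of the classes was unchanged. This count of 44 genes lost 3 of the 36 genes with an assigned promoter peak, namely Mrpl48, Eif3j2 and Eif4e. It gained 11 genes without one. They were Rpl7, whose peak was assigned to Rdh10, Rpl24 (Zbtb11), Rpl36al (Mgat2), Mrpl14 (Tmem63b), Mrpl40 (Hira), Mrps7 (Gga3), Mrps27 (Ptcd2), Eif1a (Tmed7), Eif3i (Tmem234), Eif3j1 (Eif3j2) and Rpl17, whose peak carried the name of Snord58b, a small nucleolar RNA hosted by that gene.

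Promoter composition was compared over 300-bp windows of mm9 from 250 bases before to 50 after each annotated coding start, which 229 of the 236 genes had. These genes were split by a peak of any symbol within 1 kb of any of their starts, a choice made after the data were seen. GC content was averaged over all starts of a gene, and a string counted when any of its windows held it. For genes with several starts, the values can thus include windows at starts without the peak. The 20 translation factor genes with such a peak had a median GC content of 67.4% and the 49 without one 59%. For the mitochondrial class the medians were 70.2% for the 8 genes with and 57.3% for the 70 without, while for the cytosolic class they were 56% and 56.5%. The cytosolic promoters thus differed little by this measure, whereas over all protein-coding genes the medians were 64.2% and 53.3%.

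The same windows were searched for the strings, on both strands. CCGGAAG was in 19 of the 44 genes with a peak (43.2%) and in 71 of 185 without (38.4%), while over all protein-coding genes it was in 17.1% and 13.9%. The Ets-type string was thus more frequent in the promoters of the translation machinery than in all promoters whether or not a peak was present. GGGCGG was in 79.5% of the genes of the 3 classes with a peak and 61.1% of those without, against 85.4% and 42.5% of all genes. ATGGCG was in 36.4% and 38.9% of the 3 classes, against 23.2% and 13.2% of all. TAAT was in 52.3% and 57.8%, against 52.7% and 69.3% of all. By class it was in 13 of 16 cytosolic promoters with a peak and in 56.1% of those without, in 1 of 8 and 55.7% of the mitochondrial, and in 45% and 63.3% of the translation factor promoters. In the centres of the cytosolic promoter peaks themselves, TAAT was in 1 of 12. The number of starts a gene was not compared between genes with and without a peak. The longer LIM-homeodomain type strings were in 6.82% and 4.86%, against 5.34% and 5.64%.

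From 50% GC upwards, the share of genes with a peak increased with promoter GC content, both in the 3 classes together and in all genes. Under 50% GC, 2 of 26 genes of the 3 classes had one (7.69%, 2.14% to 24.1%) against 4.65% of all genes, and from 50% to 55% it was 3 of 44 (6.82%, 2.35% to 18.2%) against 13.7%. Between 55% and 60% the values were 7 of 66 (10.6%, 5.23% to 20.3%) and 24.5%, and between 60% and 65% they were 7 of 50 (14%, 6.95% to 26.2%) and 38.6%. In promoters of 65% to 70% GC, 12 of 29 genes (41.4%, 25.5% to 59.3%) compared with 55.8%. At 70% and over the order turned, with 13 of 14 genes (92.9%, 68.5% to 98.7%) against 80.4%. That last value depended on the split, since by peaks assigned by symbol it was 7 of 14 (50%) against 73.9%. Between 65% and 70%, 8 of 11 translation factor genes had a peak (43.4% to 90.3%). There it was 2 of 11 mitochondrial genes (5.14% to 47.7%) and 2 of 7 cytosolic genes (8.22% to 64.1%), with overlapping intervals. In every other band the translation factor share was not the highest of the classes. Between 60% and 65%, for example, it was 3 of 20, beside 3 of 16 cytosolic and 1 of 14 mitochondrial genes. The part of promoter composition in the differences between classes was not tested.

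**Figure D3:**
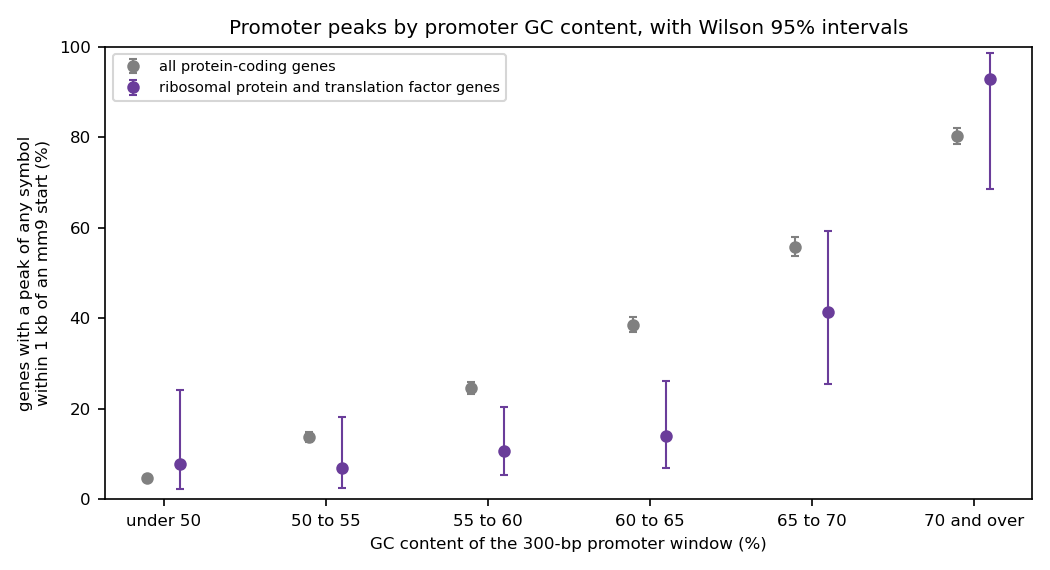
Share of genes with a peak of any symbol within 1 kb of an mm9 start, in percent, by promoter GC content. The GC content is the mean over the 300-bp promoter windows of a gene. Values are for the 3 classes together (purple) and all protein-coding genes (grey), with Wilson 95% intervals. Both rise from 50% GC upwards, and the purple points lie below the grey ones in the bands from 50% to 70%.

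Of the 64 peaks, 28 lay over 1 kb from the assigned TSS, 24 of them beyond 10 kb. Peaks beyond 10 kb belonged to 18 of the 236 genes (7.63%), against 16.4% of all protein-coding genes. They were 13 cytosolic, 5 mitochondrial and 6 translation factor peaks. How often their sequence recurs was measured as the median number of places in mm9 that held each 31-base word of the central 200 bp, and a median of 2 or more was called multi-copy. None of the 36 promoter peaks was multi-copy (2.62% of all peaks within 1 kb were), whereas 15 of the 24 peaks beyond 10 kb were (62.5%, 42.7% to 78.8%), against 81.2% of all peaks at that distance. With words of 75 bases in place of 31, 8 of the 24 were multi-copy (33.3%), against 50.9% of all. Reads that fit several places cannot be placed with certainty, so the gene named at such a peak is uncertain.

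**Figure D4:**
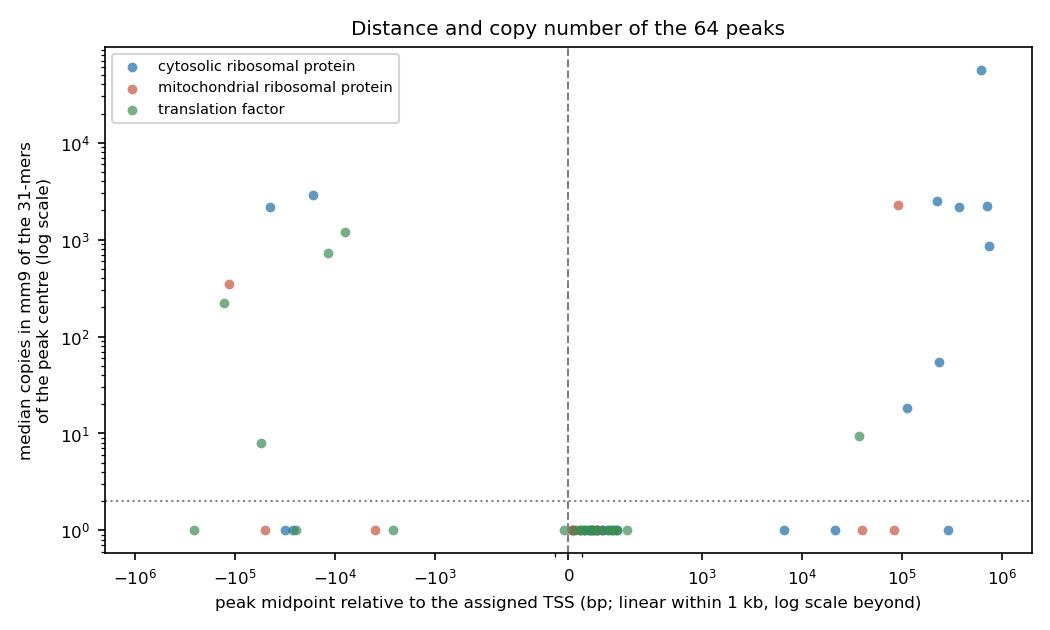
Each of the 64 peaks by its distance from the assigned TSS in bp (horizontal axis, linear within 1 kb and on a log scale beyond) and the median number of copies in mm9 of the 31-base words of its centre (vertical axis, log scale), coloured by class; the dotted line is at 2 copies. The 36 promoter peaks all lie at 1 copy, and 16 peaks farther away lie above the line.

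Rps29, a small protein of the small subunit, had the most peaks, with 5, all downstream of the gene and all multi-copy. Their midpoints lay at 224578, 237615, 625018, 718232 and 751902 bp, with 2499, 54, 56271, 2203.5 and 861.5 copies. The first of them was the widest of the 64 peaks (chr12:70034519-70036672, 2153 bp), the second was 1647 bp wide (chr12:70021735-70023382) and the one at 625018 bp was 470 bp wide (chr12:69634920-69635390). The 2 farthest were 934 bp (chr12:69541474-69542408) and 1597 bp wide (chr12:69507473-69509070). No peak lay within 1 kb of Rps29 itself.

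Rpl10l, the autosomal copy of the X-linked Rpl10 that is used in the testis, had 2 peaks, at 112639 bp (chr12:67272548-67272951, 403 bp wide, 18.5 copies) and 368605 bp (chr12:67016093-67017473, 1380 bp wide, 2165 copies). Rps3a1 had, beside its promoter peak, one at -16676 bp (chr3:85962766-85963767, 1001 bp wide) with 2920 copies, and it was the cytosolic peak beyond 10 kb closest to its gene. Rpl34 had a single peak at -44273 bp (chr3:130477111-130478067, 956 bp wide) with 2165 copies. The 4 single-copy peaks beyond 10 kb of the class were assigned to Rps20 at 21621 bp (chr4:3740877-3741486, 609 bp wide), to Rps14 at -26148 bp (chr18:60907449-60908756, 1307 bp), to Rpl38, which is known for its role in the translation of Hox mRNAs, at -31485 bp (chr11:114498120-114498625, 505 bp), and to Rps24 at 288833 bp (chr14:25598361-25599111, 750 bp). The promoter peak of Rps14, at 255 bp, was 637 bp wide (chr18:60934187-60934824). The distal peak of Rps14 lay in an intron of Ndst1, 202 bp from a start of that gene, and had the highest GC content of the 64, 86%. The only cytosolic peak between 1 and 10 kb was that of Rps28 at 6682 bp (chr17:33954177-33955346), in a coding exon of Kank3.

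Of the mitochondrial genes, Mrps6 had a second peak at 83062 bp (chr16:92141369-92141917, 548 bp wide, intergenic). Mrpl37 was assigned a peak at 39704 bp (chr4:106699448-106700087, 639 bp wide) in an intron of Ssbp3, and Mrps10 one at -49376 bp (chr17:47456136-47456784, 648 bp) in a coding exon of Trerf1. These 3 were single-copy. The multi-copy peaks of the class were those of Mrps28 at 91498 bp, in an intron of Mrps28 (chr3:8831697-8833021, 1324 bp wide, 2250.5 copies), and Mrps33 at -115225 bp (chr6:39875465-39876855, 1390 bp wide, 345.5 copies). Mrps36 had an intergenic peak of 549 bp at -3945 bp (chr13:101518285-101518834).

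Among translation factors, Eif3d, the eIF3 subunit that can itself bind the cap, had 2 peaks inside Cacng2, at -24475 bp (chr15:77825384-77826074, 690 bp wide, coding exon, single-copy) and -54855 bp (chr15:77855917-77856301, intron, 8 copies). The latter was the narrowest of the 64, at 384 bp. Eif4g3 had, beside its promoter peak at 300 bp (chr4:137548903-137550440, 1537 bp wide), a multi-copy one at -7850 bp (chr4:137541039-137542004, 965 bp, 1206 copies). Eif2ak4, the kinase GCN2 that senses uncharged tRNA, had a peak in its own gene at 37742 bp (chr2:118252296-118252885, 589 bp wide, 9.5 copies). Eef1e1, a protein of the multi-synthetase complex, was assigned one at -126925 bp (chr13:38877426-38878219, 793 bp wide, 224 copies) and Eef2kmt, a methyltransferase of eEF2, one at -256008 bp (chr16:5511804-5512310, 506 bp wide, single-copy). No peak was assigned to the 6 genes of the classes on chromosome X, Rpl10, Rpl36a, Rpl39, Rps4x, Eif1ax and Eif2s3x. A count of 0 of 6 allows a share of up to 50% by the same limit of 3 counts (upper Wilson limit 39.0%). That limit is close to the 39.1% of all protein-coding genes with a peak, and no share over chromosome X was computed. The Y-linked partner of Eif2s3x, Eif2s3y, had a peak at -11753 bp (chrY:334672-335933, 1261 bp wide) with 736.5 copies.

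Several of the distal peaks shared sequence with one another. The distal peaks of Rps29 at 224578 bp and of Mrps28 shared 545 words of 31 bases, which were 42.6% of the words of the former and 72.1% of the latter, and both shared words with the distal peak of Rps3a1 (489 and 462). A second set was formed by Rpl34, Rpl10l at 368605 bp and Rps29 at 718232 bp, with 415 to 516 shared words a pair, and another by Rps29 at 751902 bp and Mrps33, with 316. In all, 15 of the 64 peaks shared at least 1 word with another, 12 of them multi-copy. Such sharing was not counted for other sets of peaks, so it is not known to be particular to these classes. Of all peaks beyond 10 kb, 81.2% were multi-copy. To show this, 120 bases are given from the 293-base stretch common to the peaks of Rps29 and Mrps28, as read at chr12:70035897-70036016 on the plus strand, in lower case since no string is marked.
Rps29 and Mrps28: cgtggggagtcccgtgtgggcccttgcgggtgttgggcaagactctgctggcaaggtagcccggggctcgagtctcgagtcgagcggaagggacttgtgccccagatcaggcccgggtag
The stretch had a GC content of 67.5%, and the same letters lay far from the starts of a cytosolic and of a mitochondrial ribosomal protein gene on different chromosomes.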

How the data were processed

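Isl1 occupancy was measured by ChIP-Seq in 2 replicates with 1 input, grouped by their titles. According to the study's methods, the authors aligned reads to mm9 with bowtie2, removed duplicates with Picard 1.136, called peaks with MACS14, removed blacklisted regions, kept areas common to both replicates with bedtools 2.15 and assigned each peak to the closest TSS with HOMER. The deposited values are positions, signed distances in bp, RefSeq accessions and symbols, with no counts or scores. Peaks below the cutoff in either replicate are therefore missing, and the depth of each library is unknown. The start base of the coordinates is not stated, so starts are uncertain by 1 bp.

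Identical lines were dropped, which left 14082 of 14165 lines, and 0 of the 64 peaks were affected. Sequence, copy number and annotated features were read from the NCBIM37 assembly, which is mm9, and GENCODE M1. Gene classes were counted over 21031 RefSeq protein-coding genes, with older symbols matched where unique, and no RefSeq coordinates are printed. RefSeq promoter windows of GRCm38.p6 served for 1 alternative string search only. Searches and copy counts were tested on simulated sequence. Intervals are 95% Wilson intervals from SciPy 1.17.1, and they cover counting error only. No test across genes was made. The members and gene lists were chosen with earlier results of these data known. Every gene of the classes with a peak was named. Positions and widths were given for the 5 genes per class closest to the TSS, the 2 widest and 2 narrowest peaks, genes with several peaks and peaks beyond 10 kb. Alternatives varied the width, merging, copy number, distance, gene table and window. The lists of neighbouring pathways cover regulators of the factors, ribosomal proteins outside the symbol rule, S6 kinases, tRNA synthetases, mitochondrial translation, termination and ribosome biogenesis.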

Additional observations from a re-analysis of the deposited data

How the results depend on the processing

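For 21 results, 62 alternative values were computed, and 52 stayed within the 95% interval of the value as reported, within 1 SD of a median, or within 1.5 times a count. With the peak required within 1 kb of the TSS, the share of cytosolic genes with a peak moved to 13.8% and that of mitochondrial genes to 6.41%. A gene table taken from the mm9 annotation, which also lists pseudogene names as coding, moved the cytosolic share to 14.2% of 134 genes. Among the 48 single-copy peaks of the classes, 75% lay within 1 kb, beside 5274 of the 7536 single-copy peaks of the whole list. Words of 75 bases made 12.5% of the 64 peaks multi-copy, against 28.4% of all peaks. In the central 400 bp, TAAT was in 16.7% and GGGCGG in 86.1% of the promoter peaks (13.0% and 87.2% of all peaks within 1 kb). The medians of promoter GC content, split by assigned symbol instead of by mm9 start, an alternative added after the data were seen, stayed within 1 SD. In the RefSeq promoter windows of 29 of the 36 genes, which are other windows than the peak centres, TAAT was in 37.9%, GGGCGG in 79.3% and CCGGAAG in 41.4%. No share over all genes was computed for the RefSeq windows. The cause of these changes was not tested, apart from the wider window and the stricter distance, which change the share by construction. No peak of the classes lay within 1000 bp of another peak, so merging changed nothing. Neither replicate could be left out, since 1 list covers the pair, and no paired analysis was possible because no result comes from a test between samples. Without depth or scores, the absence of a peak does not show the absence of occupancy.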

Other observations

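Genes next to the 3 classes in the same pathway were counted as well. Of 12 ribosomal proteins whose names fall outside the symbol rule, 5 had a peak and 3 a promoter peak, at Rpsa (45 bp), Dap3 (-256 bp) and Gadd45gip1 (45 bp), the latter pair belonging to the mitochondrial ribosome. Rack1 had only distal peaks, 4 in number, and all were multi-copy. Of 25 genes of ribosome biogenesis, 7 had a promoter peak (28%), including Ncl and Fbl, which encode nucleolin and fibrillarin, and Ubtf and Polr1b of RNA polymerase I transcription. The share of all protein-coding genes with a promoter peak was 24.2%.

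Among 10 genes named as S6 kinases (Rps6k), some of which phosphorylate ribosomal protein S6, 8 had a peak. A promoter peak was found at 6 (60%), namely Rps6ka1, Rps6ka2, Rps6ka3, Rps6ka4, Rps6ka5 and Rps6kb1. The termination and recycling genes gave 3 of 8, at Etf1, Gspt1 and Pabpc1. Cytosolic tRNA synthetases gave 3 of 20, at Eprs, Gars and Rars, and the mitochondrial translation genes 3 of 26, at Iars2, Mtrf1l and Tsfm. The list of 15 regulators of translation factors gave 2, Eif4ebp1 and Eif4ebp2. These lists hold between 8 and 26 genes, were written with earlier results of these data known, and were not tested.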
